A study of Homo sapiens with 9 samples.

Results

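The arrays followed 10 genes of the interleukin-6 family and its gp130 to STAT3 signalling route in HCCC-9810 cells, a human intrahepatic cholangiocarcinoma line. The 10 genes are the cytokines IL6, LIF and IL11, the receptor subunits IL6ST (gp130), IL6R, LIFR and OSMR, the kinase JAK1, the transcription factor STAT3 and the feedback inhibitor SOCS3. All probe sets annotated to just 1 of these symbols were taken, which gave 38 of the 49395 probe sets on the array and 10 of the 18132 genes with such a probe set. The genes were chosen from pathway knowledge with earlier results of these same arrays in view, in which IL6 was lower with si-BAP1 and IL6ST with si-MBD5. The differences of the 10 genes are therefore given as a description, with no p-value.

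The 9 arrays fell into 3 groups of 3 biological replicates. One group was transfected with siRNAs against BAP1 (si-BAP1), which encodes a nuclear deubiquitinase. A second was transfected with siRNAs against MBD5 (si-MBD5), which encodes a methyl-CpG-binding domain protein. The reference cells are called si-Control in the sample titles and control shRNA in other labels, and which was used is not settled. All groups were the same cell line with no stated added cytokine, time or dose, so p-values measure the spread between samples of that line.

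Cytokines of this family signal through gp130, alone or paired with a cytokine-specific receptor subunit. Interleukin-6 first binds IL6R and then gp130, LIF binds LIFR with gp130, and oncostatin M binds OSMR or LIFR with gp130. The receptor-bound kinase JAK1 phosphorylates STAT3, which enters the nucleus and induces genes that include SOCS3, an inhibitor of the receptor and its kinase. In the liver the pathway drives the acute phase response in hepatocytes, and biliary cells and cholangiocarcinoma cells are known to make and respond to interleukin-6.

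Promoter sequence is shown for IL6 and IL6ST, the genes whose earlier results led to the choice of this family, and for OSMR, the 1 gene of the 10 whose brightest probe set read higher in both knockdowns with no overlap with the si-Control arrays. Each line holds the 250 bases before the RefSeq gene start, 5′ to 3′ on the coding strand, in build GRCh38.p14. IL6 lies at chr7:22726950-22727199 on the plus strand, IL6ST at chr5:55994964-55995213 on the minus strand and OSMR at chr5:38845762-38846011 on the plus strand. Capitals mark matches, on either strand, to 5 motifs: the kappaB consensus, the C/EBP motif TTGCNNAA, the cyclic AMP response core TGACGT, the AP-1 motif TGANTCA and the STAT palindrome TTCNNNGAA.
IL6: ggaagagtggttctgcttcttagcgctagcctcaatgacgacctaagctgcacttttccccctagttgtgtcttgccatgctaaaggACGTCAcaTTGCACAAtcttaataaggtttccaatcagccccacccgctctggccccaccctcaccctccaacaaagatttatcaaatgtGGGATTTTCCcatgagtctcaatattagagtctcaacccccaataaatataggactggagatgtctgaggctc
IL6ST: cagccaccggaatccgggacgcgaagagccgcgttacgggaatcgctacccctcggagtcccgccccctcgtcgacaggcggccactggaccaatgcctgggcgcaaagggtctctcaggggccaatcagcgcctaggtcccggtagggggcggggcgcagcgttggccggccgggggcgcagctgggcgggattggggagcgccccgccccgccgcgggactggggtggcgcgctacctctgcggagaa
OSMR: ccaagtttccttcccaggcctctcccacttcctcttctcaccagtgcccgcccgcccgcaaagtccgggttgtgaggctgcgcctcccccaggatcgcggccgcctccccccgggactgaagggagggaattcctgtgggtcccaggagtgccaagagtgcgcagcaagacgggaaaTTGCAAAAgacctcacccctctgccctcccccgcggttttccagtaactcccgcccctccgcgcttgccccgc

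The IL6 window held a kappaB match 73 to 64 bases before the start, a C/EBP match 155 to 148 bases before it and a cyclic AMP response core 163 to 158 bases before it, none overlapping another. The kappaB consensus occurred in 5.21% of all 35116 promoter windows of this length, the C/EBP motif in 9.05% and the cyclic AMP core in 7.10%. The OSMR window held 1 C/EBP match, 73 to 66 bases before the start, and the IL6ST window held none of the 5 motifs. The STAT palindrome and the AP-1 motif, each in 6.57% of all windows, occurred in none of these 3 windows. The windows differed in base composition, with 73.6% G and C in IL6ST, 66.4% in OSMR and 47.6% in IL6, beside a median of 58% over all windows. Promoter windows were found for 9 of the 10 genes (14 windows); LIF was not among them. The STAT palindrome occurred in 2 of the 3 LIFR windows, 165 to 157 bases before the start in one and 182 to 174 in another, and in neither SOCS3 window. A match is a description of the letters only, and a window without one says nothing of the factor.

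Of the 38 probe sets, 28 had a mean intensity above 25.5, the level exceeded by the brightest 60% of probe sets (the filter below the 40th percentile), and all 10 genes kept at least 1. Intensity is on a linear scale as deposited, and differences are those of group means of log2(intensity + 16) with the standard error (SE) of limma fitted to all probe sets above the filter. The added 16 makes a difference smaller than the plain ratio would give, more so for dim probe sets. Intensities of different probe sets depend on their probes, so no gene's level is set against another's. Group values are mean ± SD over n = 3 arrays. Where arrays of 2 groups are said not to overlap, this describes the values only. The share of all probe sets that separate in this way is not given here, so how unusual it is was not tested.

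The targets were read first. MBD5 was near the bottom of the arrays, at the 11.9th percentile, and its brighter probe set read 6.20, 6.20 and 6.11 in si-MBD5 arrays and 7.16, 7.06 and 6.90 in si-Control arrays, a log2 difference of -0.055 (SE 0.027). Those 3 si-MBD5 values were the lowest of the 9 arrays. The other MBD5 probe set, at the 0.83rd percentile, read 2.38, 2.24 and 2.38 in si-MBD5 and 1.98, 2.68 and 2.51 in si-Control arrays, which overlapped (log2 -0.004, SE 0.019). Both lay below the filter, and BAP1 was not analysed here. The line carried the simple keratins KRT7, KRT8 and KRT18 with SOX9 and CLDN4 above the filter, 5 of 9 cholangiocyte markers on the array, while KRT19 and EPCAM lay below it. The summed intensity of all 9 was 3740 to 3870 in si-BAP1, 3455 to 3710 in si-MBD5 and 3657 to 3962 in si-Control arrays. Of the 5 above the filter, 1 passed as higher and 2 as lower in si-BAP1, and 1 as lower in si-MBD5. Over all genes 12.4% passed as higher and 11.1% as lower in si-BAP1, and 8.99% as lower in si-MBD5. Of other cell types, 3 of 8 hepatocyte, 2 of 7 immune and 4 of 9 fibroblast and endothelial markers lay above the filter, and none of these 9 genes passed in either knockdown. The summed intensity of the immune list was 117 to 145 in si-BAP1, 126 to 147 in si-MBD5 and 130 to 146 in si-Control arrays, and that of the fibroblast and endothelial list 201 to 227, 203 to 230 and 202 to 216. The 3' to 5' ratio of ACTB, a sign of RNA quality, was 10.8 to 11.4 in si-BAP1, 11.6 to 13.0 in si-MBD5 and 11.8 to 12.8 in si-Control arrays. That of GAPDH was 1.070 to 1.092, 1.066 to 1.074 and 1.032 to 1.084 in the same order. The 2 controls thus gave unlike ratios, and the part of RNA quality in the results was not tested. In these bulk samples fewer cells of a kind and less RNA per cell cannot be told apart.

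Among the 28 member probe sets above the filter, 8 passed an adjusted p of 0.05 as lower and 1 as higher in si-BAP1 against si-Control, where 8.79% and 11.4% of all 29584 probe sets did. In si-MBD5 against si-Control 7 were lower and 2 higher, with 6.65% and 5.9% of all probe sets. Between si-BAP1 and si-MBD5, 5 were higher and 6 lower in si-BAP1, with 4.53% and 3.16% of all probe sets. Nothing is read from these counts, since the genes were proposed with these comparisons known. The si-BAP1 and si-MBD5 comparisons use the same 3 si-Control arrays.

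**Figure D1:**
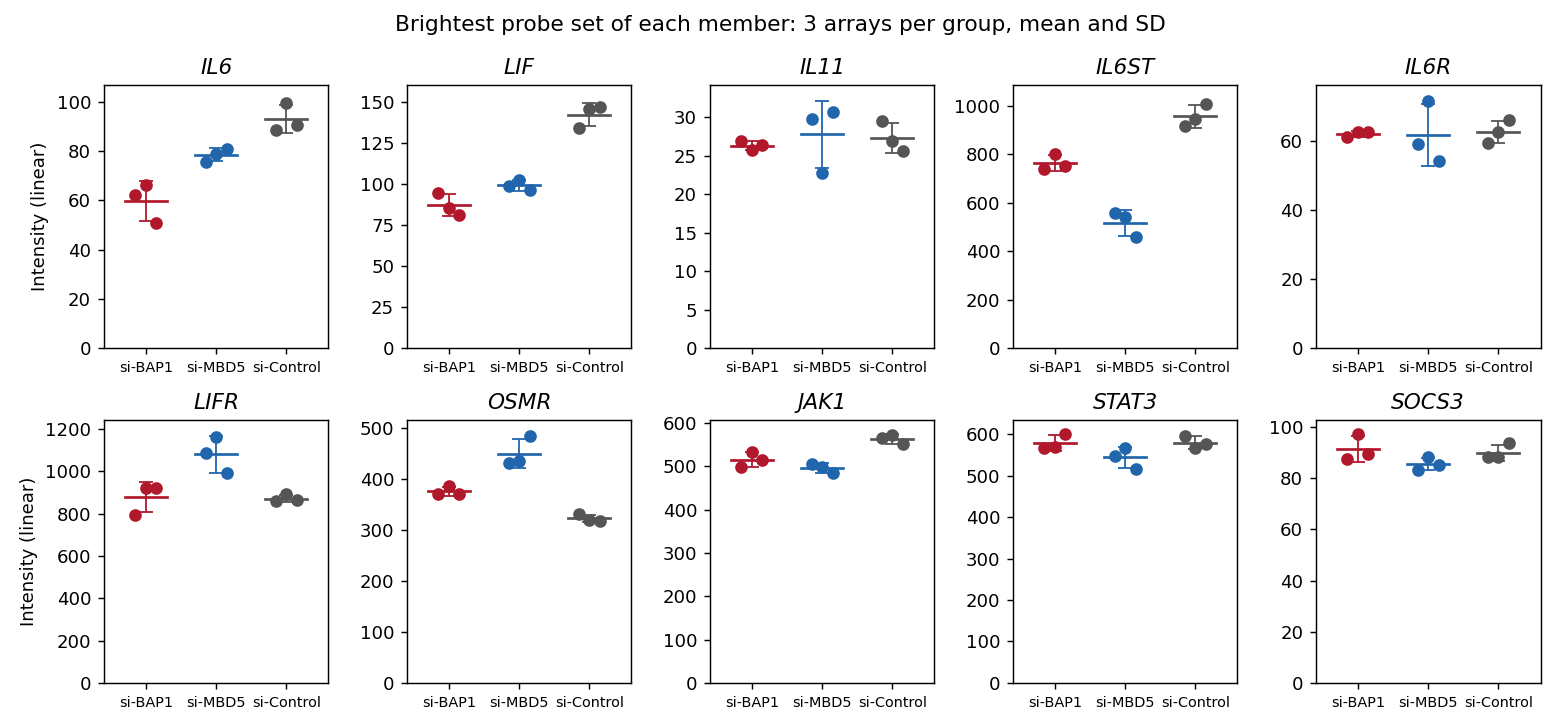
Intensity (linear scale, starting at 0) of the brightest probe set of each of the 10 genes in the 3 si-BAP1, 3 si-MBD5 and 3 si-Control arrays; points are arrays, horizontal lines group means and bars the SD. IL6, LIF, IL6ST and JAK1 lie lower in both knockdowns than in si-Control, OSMR lies higher in both, and LIFR lies higher in si-MBD5 alone.

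Interleukin-6 signal was lowest in si-BAP1 cells. The brighter IL6 probe set read 62.1, 66.4 and 50.7 in si-BAP1 arrays and 75.8, 78.9 and 80.9 in si-MBD5 arrays, against 88.8, 99.4 and 90.8 in si-Control arrays. The 3 groups did not overlap, with every si-BAP1 array below every si-MBD5 array and every si-MBD5 array below every si-Control array. The log2 difference from si-Control was -0.53 in si-BAP1 and -0.20 in si-MBD5 (SE 0.070 each), and si-BAP1 minus si-MBD5 was -0.33 (SE 0.070). The dimmer IL6 probe set, at the 42.5th percentile, did not show this order: it read 24.6 to 28.4 in si-BAP1, 27.2 to 29.5 in si-MBD5 and 28.4 in each si-Control array (log2 differences -0.043 and 0.001, SE 0.050 each).

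LIF, the leukaemia inhibitory factor, was lower in both knockdowns on its brightest probe set. That probe set carries the suffix _s_at, for probes shared by several transcripts. It read 94.4, 85.2 and 81.3 in si-BAP1 arrays and 98.8, 102.6 and 96.1 in si-MBD5 arrays, against 134, 145.5 and 147 in si-Control arrays. All 6 knockdown arrays lay below all 3 si-Control arrays, and the si-BAP1 arrays lay below the si-MBD5 arrays by a margin of less than 2 intensity units. The log2 difference was -0.62 in si-BAP1 and -0.46 in si-MBD5 (SE 0.055 each). The second LIF probe set, at the 46.5th percentile, read 29.0 to 32.2 in si-BAP1, 31.6 to 31.7 in si-MBD5 and 31.7 to 40.3 in si-Control arrays, so the groups overlapped (log2 -0.17 and -0.12, SE 0.059 each).

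IL11, a cytokine that signals through its own receptor subunit and gp130, gave little signal. Its brightest probe set, at the 41.7th percentile, averaged 26.3 ± 0.56 in si-BAP1, 27.8 ± 4.3 in si-MBD5 and 27.3 ± 2.0 in si-Control arrays, with overlapping groups. Its log2 differences from si-Control were -0.033 and 0.011 (SE 0.067 each), and its other 2 probe sets lay below the filter.

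The gp130 subunit IL6ST was lower in both knockdowns and by more in si-MBD5. Its brightest probe set read 740, 802 and 752 in si-BAP1 arrays and 555, 539 and 457 in si-MBD5 arrays, against 916, 942.5 and 1006 in si-Control arrays. The groups did not overlap, and the order was si-MBD5, then si-BAP1, then si-Control from low to high. The log2 difference was -0.31 in si-BAP1 and -0.87 in si-MBD5 (SE 0.064 each), and si-BAP1 minus si-MBD5 was 0.55 (SE 0.064).

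The other IL6ST probe sets split on how far si-MBD5 and si-BAP1 differed. In si-MBD5 against si-Control the probe sets ranked 3 to 6 by brightness gave log2 differences of -0.67, -0.71, -0.54 and -0.33 (SE 0.056 to 0.072), with the 3 si-MBD5 arrays below the 3 si-Control arrays in each. The second brightest gave -0.14 (SE 0.049), with 171, 190 and 174 in si-MBD5 arrays overlapping 189, 199 and 206 in si-Control arrays. In si-BAP1 that same probe set gave -0.22 (SE 0.049), with 164, 169 and 171 in si-BAP1 arrays, all below si-Control. Those ranked 3 and 4 gave -0.18 and -0.19 in si-BAP1 with no overlap (SE 0.067 and 0.072), and those ranked 5 and 6 gave -0.077 and -0.048 with overlapping arrays (SE 0.056 and 0.065). Between the knockdowns, the brightest and those ranked 3 to 6 read higher in si-BAP1 (log2 0.28 to 0.55) with no overlap. The second brightest gave -0.076 (SE 0.049).

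The brightest IL6ST probe set and the third in brightness carry the suffix _s_at, for probes shared by several transcripts, and the fourth carries _x_at, for probes that can match other sequences. Those ranked 3 and 4 were designed to the same transcript record and are not independent readings. RefSeq also lists a pseudogene, IL6STP1, on chromosome 17, while IL6ST lies at chr5:55935095-55994963 (GRCh38.p14), and whether its transcripts contributed was not tested. The 2 dimmest IL6ST probe sets read between 11.2 and 15.2 in every array, below the filter.

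**Figure D2:**
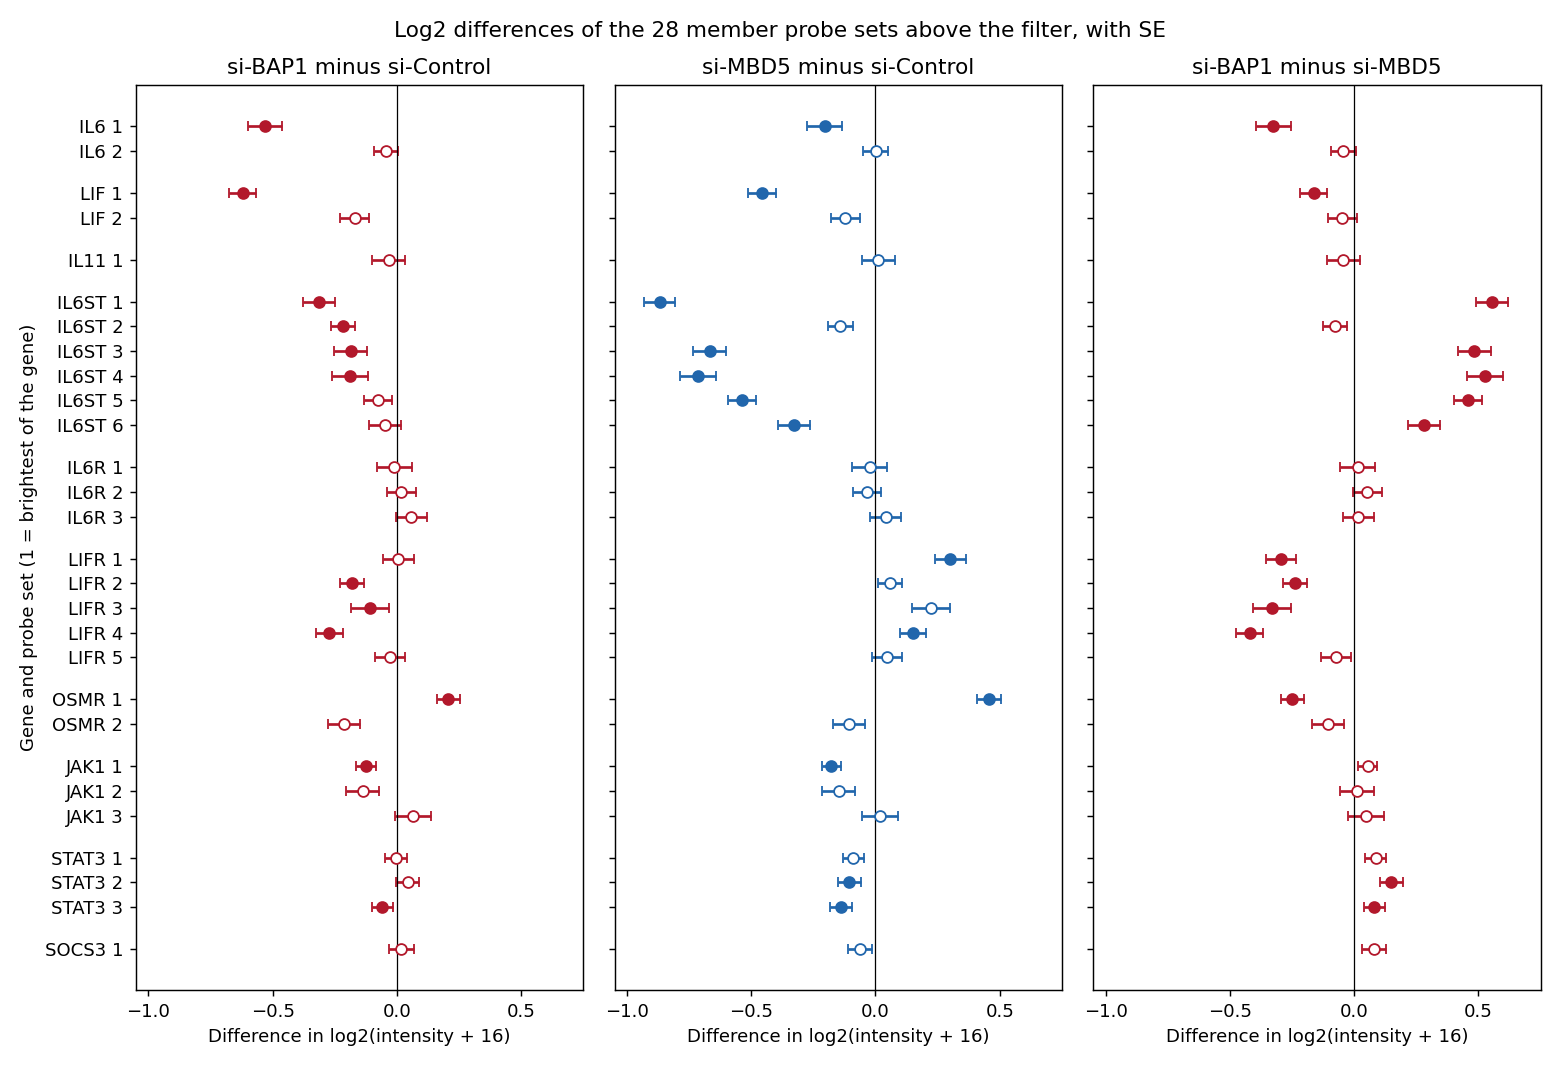
Difference in log2(intensity + 16) with its SE (bars) for the 28 member probe sets above the filter, numbered by brightness within each gene, for si-BAP1 minus si-Control, si-MBD5 minus si-Control and si-BAP1 minus si-MBD5. Filled points have no overlap between the 3 arrays of each group; IL6ST probe sets 1, 3, 4, 5 and 6 lie far below 0 in si-MBD5, with the second near -0.14, and OSMR probe sets 1 and 2 lie on opposite sides of 0.

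IL6R, the interleukin-6-binding subunit, showed no separation of the groups above the filter. Its brightest probe set averaged 62.0 ± 0.78 in si-BAP1, 61.6 ± 9.0 in si-MBD5 and 62.5 ± 3.3 in si-Control arrays, and the wide si-MBD5 spread came from arrays of 59.0, 71.6 and 54.1. The 3 IL6R probe sets above the filter had log2 differences between -0.033 and 0.058 in the 2 knockdowns (SE 0.057 to 0.070).

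LIFR, the LIF-binding subunit, stood apart between the 2 knockdowns. Its brightest probe set read 794, 919 and 919 in si-BAP1 arrays and 1086, 1163 and 991 in si-MBD5 arrays, against 859.5, 891 and 863 in si-Control arrays. Every si-MBD5 array was above every other array, while si-BAP1 arrays lay on both sides of the si-Control arrays. The log2 difference was 0.007 in si-BAP1 and 0.30 in si-MBD5 (SE 0.061 each), and si-BAP1 minus si-MBD5 was -0.29 (SE 0.061). This brightest LIFR probe set also carries the suffix _s_at.

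The 4 brightest LIFR probe sets all read lower in si-BAP1 than in si-MBD5 with no overlap of arrays (log2 -0.24 to -0.42). They disagreed on where si-Control lay. On the fourth brightest, si-BAP1 arrays read 329, 382 and 374 and si-MBD5 arrays 491.5, 507 and 468, against 432, 445 and 439 in si-Control arrays, so si-Control lay between the knockdowns (log2 -0.27 and 0.15, SE 0.053 each). On the second brightest the si-BAP1 arrays lay below si-Control (log2 -0.18, SE 0.048), and si-MBD5 overlapped si-Control (log2 0.058, SE 0.048). The fifth probe set, the dimmest, overlapped in all comparisons.

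OSMR, the oncostatin M-binding subunit, was higher in both knockdowns on its brightest probe set and not on its others. The brightest read 371, 386 and 371 in si-BAP1 arrays and 431, 436 and 484 in si-MBD5 arrays, against 331, 321 and 319 in si-Control arrays. The groups did not overlap, with si-MBD5 highest and si-Control lowest (log2 0.21 in si-BAP1 and 0.46 in si-MBD5, SE 0.047 each). The second brightest, much dimmer at the 52.5th percentile, read 40.5, 38.4 and 34.5 in si-BAP1 arrays and 41.5, 43.5 and 40.5 in si-MBD5 arrays, against 47.7, 51.0 and 40.5 in si-Control arrays. That is the other direction, with overlapping arrays (log2 -0.21 and -0.11, SE 0.065 each). The remaining 3 OSMR probe sets lay below the filter, and each was lower than si-Control on average in both knockdowns (log2 -0.052 to -0.17). The mean over both OSMR probe sets above the filter gave a log2 difference of -0.0019 in si-BAP1 and 0.18 in si-MBD5.

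JAK1, the kinase bound to gp130, was slightly lower in both knockdowns on its brightest probe set. This probe set probe set read 498, 532 and 516 in si-BAP1 arrays and 505, 498 and 483.5 in si-MBD5 arrays, against 565, 573 and 550.5 in si-Control arrays. All 6 knockdown arrays were below the 3 si-Control arrays, and the knockdowns overlapped each other (log2 -0.12 and -0.18 against si-Control, SE 0.039 each). On the second JAK1 probe set si-Control replicate 3 read 383 beside 474 and 471 in the other si-Control arrays, and the groups overlapped (log2 -0.14 and -0.15, SE 0.067 each). The third JAK1 probe set, at the 49.4th percentile, averaged 38.3 ± 5.7 in si-BAP1 and 36.4 ± 1.8 in si-MBD5, against 35.7 ± 2.9 in si-Control arrays. That is the other direction, with overlapping arrays (log2 0.067 and 0.019, SE 0.072 each). The mean of the 3 probe sets gave -0.065 in si-BAP1 and -0.10 in si-MBD5.

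STAT3 and SOCS3, the transcription factor and its target and inhibitor, differed little. The brightest STAT3 probe set averaged 579 ± 19 in si-BAP1, 544 ± 25 in si-MBD5 and 580 ± 15 in si-Control arrays, with overlapping groups. All 3 STAT3 probe sets were lower on average in si-MBD5 than in si-Control (log2 -0.089, -0.11 and -0.14, SE 0.043 to 0.046). The arrays of the third did not overlap. Those of the second nearly touched, with 327.71 in the highest si-MBD5 array and 327.8 in the lowest si-Control array. In si-BAP1 their log2 differences were -0.003, 0.044 and -0.058. The brighter SOCS3 probe set averaged 91.4 ± 5.1 in si-BAP1, 85.6 ± 2.4 in si-MBD5 and 90.0 ± 3.2 in si-Control arrays, with log2 differences of 0.019 and -0.061 (SE 0.049 each).

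Other genes of the pathway were taken in 8 lists of 111 genes that hold none of the 10 above; 104 had a probe set named by a single symbol and the other 7 were not analysed here. Of the 104, 82 were above the filter and tested. Each was read from its brightest probe set in limma's fit over 12434 genes, with p-values adjusted over all of them. In si-BAP1 against si-Control 27 of the 82 fell and 6 rose, where 11.1% of all genes fell and 12.4% rose. In si-MBD5 against si-Control 20 fell and 4 rose, where 8.99% of all genes fell and 7.29% rose. The median log2 difference of the 82 genes was -0.061 in si-BAP1 and -0.054 in si-MBD5, beside 0.00047 and 8.5e-05 over all genes. Between si-BAP1 and si-MBD5, 5 were higher and 10 lower in si-BAP1, where 5.76% and 4.21% of all genes were, with a median of -0.015 beside 0.003 over all genes.

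**Figure D3:**
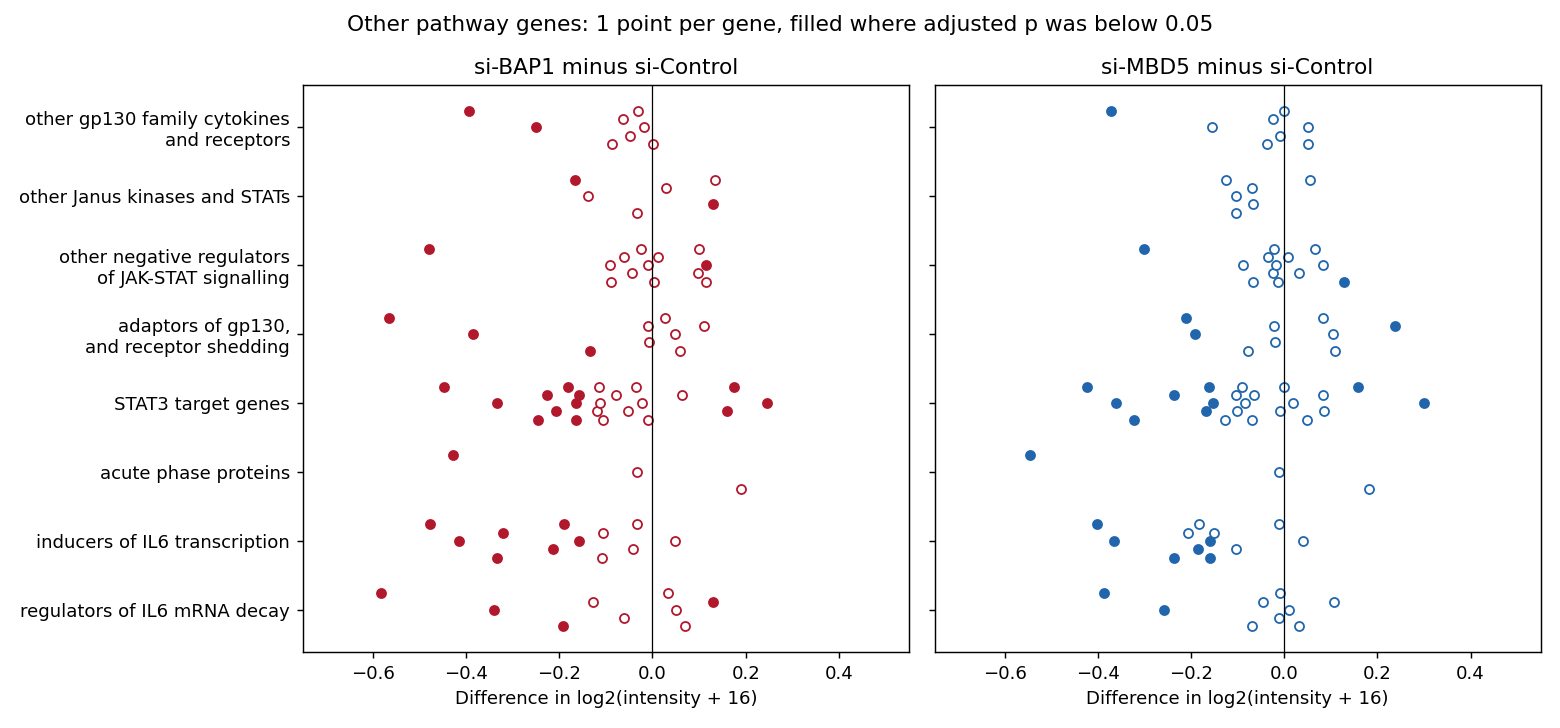
Difference in log2(intensity + 16) from si-Control for the 82 tested genes of the 8 pathway lists, si-BAP1 at left and si-MBD5 at right, 1 point per gene and filled where limma's adjusted p was below 0.05; vertical offsets within a list only separate points. In the list of inducers of IL6 transcription all 7 filled points in si-BAP1 and all 6 in si-MBD5 lie below 0. That list also holds the NF-kB inhibitor NFKBIA.

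Of the genes listed as inducers of IL6 transcription, which are NF-kB factors and regulators, cytokines, receptors and the factors CREB1 and ATF3, some fell and none passed as higher in either knockdown. The list also holds NFKBIA, which inhibits NF-kB, so the genes that fell are not all inducers. In si-BAP1 7 of 12 tested genes fell and 5 did not pass (median log2 -0.17), and in si-MBD5 6 fell and 6 did not pass (median log2 -0.17). Of all genes, 11.1% fell in si-BAP1 and 8.99% in si-MBD5. NFKBIA, the NF-kB inhibitor and itself an NF-kB target, averaged 351.1 ± 12 in si-BAP1 and 340 ± 7.0 in si-MBD5, against 442.5 ± 9.5 in si-Control arrays. Its log2 differences were -0.32 and -0.36 (SE 0.039 each; limma adjusted p = 4.96e-05 and 4.53e-05), and both of its other probe sets carried the same calls.

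NFKB2, a precursor of the NF-kB subunit p52, read 104, 108 and 101 in si-BAP1 arrays and 113, 107 and 114 in si-MBD5 arrays, against 185, 144 and 130 in si-Control arrays. It fell in both (log2 -0.48 and -0.40, SE 0.087 each; limma adjusted p = 0.00119 and 0.00662), and the si-Control arrays were themselves wide apart. RELB, the partner of p52, fell with log2 differences of -0.41 and -0.24 (limma adjusted p = 2.4e-04 and 0.0186), the si-MBD5 call ending in 4 of 17 alternatives (adjusted p up to 0.0731). TNFRSF1A, the main receptor for tumour necrosis factor, fell by 0.33 and 0.16 on the log2 scale (limma adjusted p = 1.04e-04 and 0.0269). The si-BAP1 call on TNFRSF1A ended once probe sets with those suffixes were left out (limma adjusted p = 0.167), and the si-MBD5 call ended in 9 of 17 alternatives. None of the 3 other TNFRSF1A probe sets above the filter carried a call in either. TNF, IL1A and IL1R1 were below the filter.

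Regulators of IL6 mRNA decay were mixed. In si-BAP1 3 of 9 fell, 1 rose and 5 did not pass (median log2 -0.060), and in si-MBD5 2 fell and 7 did not pass (median log2 -0.012). Of all genes, 11.1% fell and 12.4% rose in si-BAP1, and 8.99% fell and 7.29% rose in si-MBD5. ZFP36, tristetraprolin, which binds AU-rich elements and speeds the decay of cytokine mRNAs, fell to 415 ± 3.7 in si-BAP1 and 401 ± 13 in si-MBD5, against 530 ± 39 in si-Control arrays (log2 -0.34 and -0.39, SE 0.049 each; limma adjusted p = 1.94e-04 and 1.79e-04). Its relative ZFP36L1 averaged 716 ± 25 in si-BAP1 and 902 ± 60 in si-MBD5, against 1080.3 ± 25 in si-Control arrays (log2 -0.58 and -0.26). With those probe sets left out both ZFP36L1 calls ended (limma adjusted p = 0.979 and 0.763), and its si-MBD5 difference turned to 0.028. ZFP36 could not be tested in that setting, since its only probe set above the filter carries _s_at. HNRNPD, another AU-rich element binder, fell by 0.19 on the log2 scale in si-BAP1 (limma adjusted p = 0.00365) and KHSRP, which promotes decay, rose by 0.13 (limma adjusted p = 0.00652), and both calls ended when such probe sets were left out.

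Among the other cytokines and receptors of the family, 2 of 8 tested genes fell in si-BAP1 and 1 in si-MBD5, and none rose (medians -0.056 and -0.015). Over all genes 11.1% fell in si-BAP1 and 8.99% in si-MBD5. IL27RA, the interleukin-27-binding partner of gp130, read 41.6, 46.3 and 50.3 in si-BAP1 arrays and 56.0, 57.7 and 57.7 in si-MBD5 arrays, against 65.7, 67.6 and 63.1 in si-Control arrays. It fell in si-BAP1 (log2 -0.39, SE 0.055, limma adjusted p = 1.4e-04), and in si-MBD5 the difference was -0.16 (limma adjusted p = 0.0728). EBI3, a subunit of interleukin-27, fell in both, to 26.3 ± 1.3 in si-BAP1 and 22.8 ± 0.95 in si-MBD5, against 34.3 ± 4.0 in si-Control arrays (log2 -0.25 and -0.37; limma adjusted p = 0.00787 and 9.79e-04). All 3 si-MBD5 arrays and 1 si-BAP1 array read below the filter intensity of 25.5, so EBI3 was tested through its si-Control signal. The ligands OSM, CTF1 and IL27 had log2 differences between -0.048 and 0.052 and did not pass.

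The other Janus kinases and STATs moved little. JAK2, JAK3 and TYK2 did not pass in either knockdown (log2 -0.14 to 0.056). STAT5A, a factor of the growth hormone and interleukin-2 pathways, rose in si-BAP1 (411 ± 5.0 against 374 ± 8.5 in si-Control; log2 0.13, SE 0.036, limma adjusted p = 0.0164) and averaged 347 ± 1.1 in si-MBD5 (log2 -0.10, limma adjusted p = 0.0678). It was higher in si-BAP1 than in si-MBD5 (log2 0.23, limma adjusted p = 9.8e-04). STAT6, the interleukin-4 factor, fell in si-BAP1 (log2 -0.17, limma adjusted p = 0.0359); the STAT5A call in si-BAP1 ended in 3 and that of STAT6 in 8 of 17 alternatives. The list medians were -0.002 in si-BAP1 and -0.087 in si-MBD5.

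Among 13 tested negative regulators of the pathway other than SOCS3, 1 fell and 1 rose in each knockdown (medians -0.010 and -0.017). Over all genes 11.1% fell and 12.4% rose in si-BAP1, and 8.99% fell and 7.29% rose in si-MBD5. SOCS2, a feedback inhibitor of growth hormone signalling, read 125.5, 135 and 126 in si-BAP1 arrays and 147, 149 and 147 in si-MBD5 arrays, against 171, 191 and 196 in si-Control arrays. It fell in both (log2 -0.48 and -0.30, SE 0.051 each; limma adjusted p = 1.76e-05 and 0.00141), although its other probe set above the filter passed in neither. SOCS5 rose by 0.11 and 0.13 on the log2 scale (limma adjusted p = 0.0388 and 0.0307), and each call ended in 8 of 17 alternatives. The PIAS proteins and the phosphatases PTPN1, PTPN2 and PTPN6 did not pass on their brightest probe sets (log2 -0.089 to 0.099), although in si-BAP1 both other PTPN2 probe sets passed with the opposite sign, and 1 other probe set each of PIAS2 and PIAS3 passed with the same sign.

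Of 9 adaptor and receptor-shedding genes, 3 fell in si-BAP1, and 2 fell and 1 rose in si-MBD5 (medians -0.007 and -0.019). Over all genes 11.1% fell in si-BAP1, and 8.99% fell and 7.29% rose in si-MBD5. PTPN11, the phosphatase SHP2 that binds gp130 and links it to RAS and ERK, moved in opposite directions. It read 149, 167 and 142 in si-BAP1 arrays and 284, 274 and 275 in si-MBD5 arrays, against 228, 233 and 238 in si-Control arrays (log2 -0.57 and 0.24, SE 0.052 each; limma adjusted p = 4.53e-06 and 0.00695). The 2 knockdowns differed by -0.80 (limma adjusted p = 1.17e-06); the other PTPN11 probe set carried the same call in si-MBD5 and between the knockdowns, and no call in si-BAP1.

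ADAM17, the protease that sheds IL6R and tumour necrosis factor, fell to 472 ± 23 in si-BAP1 and 534 ± 30 in si-MBD5, against 620 ± 33 in si-Control arrays (log2 -0.38 and -0.21; limma adjusted p = 1.17e-04 and 0.0139). The si-MBD5 call ended without si-Control replicate 2 or 3 (limma adjusted p up to 0.0672). The 1 other ADAM17 probe set above the filter carried no call in either knockdown. SHC1, an adaptor of receptor signalling, fell by 0.13 and 0.19 on the log2 scale (limma adjusted p = 0.0196 and 0.00355), and both calls ended with the mean of its probe sets. None of the 3 other SHC1 probe sets above the filter carried a call in either. ADAM10, GAB1, GAB2, GRB2, SOS1 and ERAP1 did not pass on their brightest probe sets (log2 -0.078 to 0.11), while 1 other probe set each of ADAM10 and GRB2 passed in si-MBD5.

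Of the genes known to be induced by STAT3, more fell than rose in both knockdowns. In si-BAP1 9 of 22 tested fell, 3 rose and 10 did not pass (median log2 -0.11), where 11.1% of all genes fell and 12.4% rose. In si-MBD5 7 fell, 2 rose and 13 did not pass (median log2 -0.087), where 8.99% of all genes fell and 7.29% rose. IRF1, a transcription factor of the interferon response, read 59.0, 56.1 and 56.2 in si-BAP1 arrays and 57.1, 59.1 and 59.0 in si-MBD5 arrays, against 83.5, 87.4 and 80.6 in si-Control arrays. It fell in both (log2 -0.45 and -0.42, SE 0.045 each, limma adjusted p = 1.08e-05 and 4.53e-05). The 1 other IRF1 probe set above the filter carried the same call in si-BAP1 and no call in si-MBD5. The survival factor MCL1 fell by 0.25 and 0.36 on the log2 scale and the NF-kB cofactor BCL3 by 0.33 and 0.24, but none of these 4 calls held when probe sets with the suffixes _x_at or _s_at were left out (limma adjusted p = 0.131 to 0.989). Of the 5 other MCL1 probe sets, 3 carried the same call in si-MBD5 and 0 in si-BAP1. The 1 other BCL3 probe set carried no call in either.

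CCND1, the G1 cyclin, moved in opposite directions. It read 399, 420 and 395 in si-BAP1 arrays and 285.5, 289 and 272 in si-MBD5 arrays, against 351.4, 351.4 and 367 in si-Control arrays (log2 0.17 and -0.32, SE 0.041 each; limma adjusted p = 0.00736 and 1.87e-04). The difference between the knockdowns was 0.50 (limma adjusted p = 7.94e-06). Its 3 other probe sets carried the same call in si-MBD5 and no call in si-BAP1. BCL6, BCL2L1, PIM1, PIM3, FOS, VEGFA and MUC1 did not pass in either on their brightest probe sets (log2 -0.12 to 0.064), while 2 of the 3 other FOS probe sets rose in both.

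Of 18 acute phase genes on the array, 15 lay below the filter, among them CRP, the serum amyloid genes SAA1 and SAA2 and the fibrinogen genes FGA, FGB and FGG. Of the 3 tested, complement C3 fell in both knockdowns. C3 read 23.4, 22.9 and 24.5 in si-BAP1 arrays and 20.4, 19.3 and 21.9 in si-MBD5 arrays, against 33.7, 37.5 and 40.9 in si-Control arrays (log2 -0.43 and -0.55, SE 0.058 each; limma adjusted p = 1.11e-04 and 3.92e-05). Its knockdown arrays were all below the filter intensity of 25.5, so the gene was tested through its si-Control signal.

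The genes with profiles most like that of IL6 were found by the root mean square distance, over the 9 arrays, between profiles of log2(intensity + 16) minus the si-Control mean. Genes with LOC, LINC or orf (open reading frame) symbols were left out. The 4 closest of the other genes tested were TMEM14A (0.058 log2), NMI (0.067), EBF1 (0.069) and AKR1C2 (0.070), beside a median of 0.346 over these other genes. NMI, which binds N-myc and STAT proteins, averaged 55.7 ± 4.2 in si-BAP1 and 70.0 ± 0.59 in si-MBD5, against 85.2 ± 4.6 in si-Control arrays, and EBF1, a B-lineage transcription factor, 75.6 ± 5.8 and 101.0 ± 5.7, against 115.8 ± 2.5. With the same symbols left out, the 4 closest to IL6ST were PTBP2 (0.131 log2), S100A16 (0.144), CPA4 (0.155) and GADD45A (0.167), beside a median of 0.544. S100A16, a calcium-binding protein, averaged 589 ± 6.5 in si-BAP1 and 448 ± 16 in si-MBD5, against 828 ± 26 in si-Control arrays. These distances are descriptions of 9 arrays in 3 groups.

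**Figure D4:**
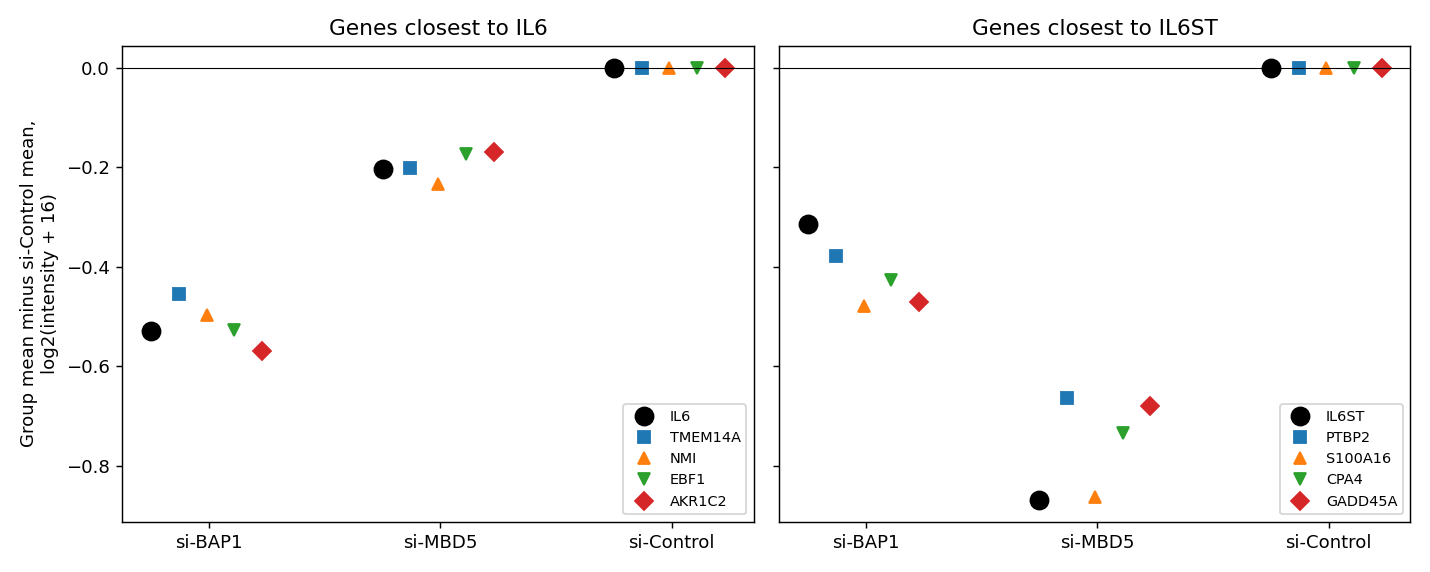
Group mean minus si-Control mean of log2(intensity + 16) for IL6 (left, black circle) and IL6ST (right, black circle) with the 4 tested genes closest to each, in si-BAP1, si-MBD5 and si-Control arrays. LOC, LINC and orf symbols were left out, and si-Control is 0 by construction. IL6 and its neighbours are lowest in si-BAP1, and IL6ST and its neighbours lowest in si-MBD5.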

How the data were processed

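RNA of 9 HCCC-9810 samples, 3 per group, was measured on Affymetrix arrays. The deposited values are intensity, 1 per probe set and array, made with MAS5 per the submitters' processing notes, which name no version. Per the labels' protocols RNA was extracted with Trizol and biotin-labelled cRNA was hybridised. Array medians were 36.9 to 38.2. Whether the deposited intensity had been scaled is stated by no source and was not tested. Log2 values were computed here from the deposited intensity after adding 16, with no scaling added. The table held 49395 probe sets: 102 controls, 44988 with 1 symbol, 1832 with several and 2473 with none; 44961 were matched to RefSeq by gene identifier.

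Probe sets with a mean above the 40th percentile (25.5) were kept. Genes (12434) were read from their brightest probe set, and member genes from every probe set (29584 probe sets fitted). A single linear model of all 9 arrays, with a mean per group, was used in limma 3.58.1 (R 4.3.3, 6 residual degrees of freedom, intensity trend), with Benjamini-Hochberg adjusted p below 0.05 as the threshold. The procedure was tested on simulated data. Python 3.11.15 and its matplotlib 3.10.9 made the plots. The genes, lists, filter and alternatives were chosen with earlier results of these data known, so no list gives independent support. Genes named were all 10 members, up to 4 genes per list with the largest differences among those past the threshold against si-Control, and the 4 closest profiles to IL6 and IL6ST. LOC, LINC and orf symbols were left out of the search for close profiles. Genes named only as not passing or below the filter were added after their values were seen. Alternatives were other constants, scalings, filters and probe set rules, the replicate number as a block, no intensity trend, the 2 groups compared alone and leaving out each array. The number of arrays limits the precision.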

Additional observations from a re-analysis of the deposited data

How the results depend on the processing

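Most differences of the 10 genes stayed within 1 SD of the reported value: 480 of 507 recomputed under 20 other settings, while 25 moved by more and 2 turned. Other filters, the replicate block, no intensity trend and the 2 groups alone could not change these differences where the gene was tested. The count of 480 includes them and so overstates how stable the differences were. OSMR in si-BAP1 against si-Control turned to -0.00189 with the mean of its probe sets, and IL6ST in si-BAP1 against si-MBD5 to -0.0759 without _x_at and _s_at probe sets. Over all alternatives IL6 in si-BAP1 ranged from -0.64 to -0.29, LIF from -0.70 to -0.17 in si-BAP1 and -0.51 to -0.12 in si-MBD5, IL6ST in si-MBD5 from -0.92 to -0.14 and LIFR in si-MBD5 from 0.058 to 0.36; leaving out single arrays kept IL6ST in si-MBD5 between -0.92 and -0.79. The causes were not tested. Of the pathway calls, 18 of 33 in si-BAP1 and 11 of 24 in si-MBD5 held in every alternative in which the gene was tested (16 or 17). Between si-BAP1 and si-MBD5 15 pathway genes passed, 9 with the 2 groups alone and 7 to 13 when single arrays were left out (7 without si-BAP1 replicate 1 or 3, 9 without si-MBD5 replicate 1). Over all genes leaving out single arrays gave 1266 to 1959 calls in si-MBD5 against si-Control (1266 without si-Control replicate 2) beside 2025, and 721 to 1328 between the knockdowns (721 without si-MBD5 replicate 1, 759 without si-BAP1 replicate 3) beside 1240. Between the knockdowns 716 genes were higher and 524 lower in si-BAP1, and 603 and 711 with quantile normalization. Same-numbered arrays did not pair: their deviations correlated at -0.433 to 0.48, and an array correlated best with its own number in 7 of 18 pairings. Arrays of different numbers correlated at -0.556 to 0.47, and structure shared across numbers was not tested by the replicate block. With the replicate block 31 pathway genes passed in si-BAP1 and 21 in si-MBD5 against si-Control, and 13 between the knockdowns. Signal over background limits IL11, the dimmer IL6, LIF and OSMR probe sets and most acute phase genes.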

Other observations

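The deposited intensities repeat exact values between arrays. Of the 38 member probe sets, 21 held an identical value in at least 2 arrays, as did 57.7% of all probe sets, and the dimmer IL6 probe set held its most common value in 5 of 9 arrays, including all 3 si-Control arrays. Its SD in si-Control arrays is therefore 0, and how the repeats arose was not tested.

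BIRC5 and EGR1, known STAT3 targets, are outside the rule for named genes and were chosen after their values were seen. The apoptosis inhibitor BIRC5 averaged 983 ± 32 in si-MBD5 against 795 ± 7.7 in si-Control (log2 0.30, limma adjusted p = 6.45e-05), and 766 ± 9.2 in si-BAP1 (log2 -0.052, adjusted p = 0.325). Si-BAP1 minus si-MBD5 was tested for BIRC5 (log2 -0.35, limma adjusted p = 2.46e-05) and for the early growth response factor EGR1 (log2 -0.19, adjusted p = 0.0129).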
